A study of Homo sapiens with 12 samples.

Results

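The genes of the class II and class IV histone deacetylases were examined in RNA sequencing of HepG2, a cell line derived from a human liver tumour. Their rows were found in the deposited count table by matching its gene identifiers, without version, to the symbols HDAC4, HDAC5, HDAC7 and HDAC9 (class IIa), HDAC6 and HDAC10 (class IIb) and HDAC11 (class IV), which gave 7 genes of 62475 identifiers. Of the 7 genes, 6 were among the 14435 genes that passed the filter on low counts, and HDAC9 did not pass. The 12 libraries formed 4 groups of 3 replicates, which the study's description calls biological. These were cells with the HDAC1_S434A mutant (S434A) treated with H89, S434A cells without H89, cells with wild-type HDAC1 (WT) treated with H89, and WT cells without H89. HDAC1 is a class I histone deacetylase, S434A is a change of a serine to alanine, and H89 inhibits protein kinase A (PKA) and is known to inhibit other kinases too. The sources used here do not give the way the mutant cells were made, whether they are 1 clone, whether they keep unmutated HDAC1, or the dose and duration of H89. Beyond that word, nothing in the labels says whether the replicates were separate cultures, so the spread between these samples may be technical. The p-values rest on 1 spread per gene shared by all 4 groups, including those not compared, although the groups differed in spread.

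Histone deacetylases remove acetyl groups from lysines of histones and other proteins. The class IIa enzymes have little deacetylase activity of their own. They bind MEF2 transcription factors and bring a corepressor complex with HDAC3 to them. Phosphorylation by salt-inducible and other kinases makes them bind 14-3-3 proteins and keeps them in the cytoplasm. In mouse liver, hormone signalling through cAMP and PKA is known to release class IIa enzymes into the nucleus, where they act with HDAC3 on FOXO factors and genes of glucose production. HDAC6 is a cytoplasmic deacetylase of alpha-tubulin that also carries ubiquitinated proteins to the aggresome, HDAC10 deacetylates a polyamine, and HDAC11 removes fatty acyl groups from lysine.

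The promoter windows of 4 of these genes are shown because HDAC4, HDAC7 and HDAC6 differed between groups in 1 direction and HDAC11 in the other. Each window runs from 250 bases before to 50 bases after the most upstream RefSeq start listed, 5′ to 3′ on the gene's strand (RefSeq, GRCh38.p14). They are chr2:239401600-239401899 on the minus strand for HDAC4, chr12:47819854-47820153 on the minus strand for HDAC7, chrX:48801148-48801447 on the plus strand for HDAC6 and chr3:13480056-13480355 on the plus strand for HDAC11. Capitals mark the cAMP response element core (TGACG, or CGTCA on the other strand), the E-box CACGTG and the CCAAT box (CCAAT, or ATTGG on the other strand).
HDAC4: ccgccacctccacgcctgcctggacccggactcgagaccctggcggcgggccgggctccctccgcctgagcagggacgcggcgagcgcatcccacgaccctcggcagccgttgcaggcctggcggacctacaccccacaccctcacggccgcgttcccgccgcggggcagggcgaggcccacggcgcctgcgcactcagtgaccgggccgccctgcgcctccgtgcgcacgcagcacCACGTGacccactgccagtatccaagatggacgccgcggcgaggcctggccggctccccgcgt
HDAC7: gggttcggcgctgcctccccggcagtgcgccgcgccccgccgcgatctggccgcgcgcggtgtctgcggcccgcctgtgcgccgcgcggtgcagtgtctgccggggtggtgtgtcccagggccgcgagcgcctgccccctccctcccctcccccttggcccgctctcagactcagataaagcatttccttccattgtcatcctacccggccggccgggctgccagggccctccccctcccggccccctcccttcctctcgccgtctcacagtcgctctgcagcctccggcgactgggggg
HDAC6: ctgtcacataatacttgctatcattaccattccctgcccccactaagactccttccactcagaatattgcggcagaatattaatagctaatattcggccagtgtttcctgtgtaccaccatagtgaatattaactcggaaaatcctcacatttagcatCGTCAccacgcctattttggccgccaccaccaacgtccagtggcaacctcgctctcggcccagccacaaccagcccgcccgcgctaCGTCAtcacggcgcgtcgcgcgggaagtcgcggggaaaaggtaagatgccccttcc
HDAC11: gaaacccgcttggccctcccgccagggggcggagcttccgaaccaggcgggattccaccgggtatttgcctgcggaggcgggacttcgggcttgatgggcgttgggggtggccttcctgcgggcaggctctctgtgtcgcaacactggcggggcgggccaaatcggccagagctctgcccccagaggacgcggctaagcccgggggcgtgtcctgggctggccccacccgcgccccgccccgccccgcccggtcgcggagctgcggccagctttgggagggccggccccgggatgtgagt
Of the 7 genes, 6 matched an entry of the promoter table, and HDAC5 did not. The HDAC6 window held 2 copies of the cAMP response element core, and the windows of HDAC4, HDAC7 and HDAC11, like those of HDAC9 and HDAC10, held 0. Of 35116 RefSeq promoter windows of the same length, 24.6% held at least 1 copy. The HDAC4 window held 1 E-box, a motif found in 7.26% of all windows. The GC box (GGGCGG, or CCGCCC on the other strand, with overlapping matches counted) occurred 5 times in the HDAC11 window. It occurred 4 times in the HDAC10 window and 3 times in that of HDAC9. The windows of HDAC4 and HDAC6 held 1 GC box each and that of HDAC7 held 0. Of all windows, 45.0% held it. The windows of HDAC4, HDAC7 and HDAC11 were 76.3%, 74.7% and 73.7% G or C and that of HDAC6 was 53.0%, against a median of 58.7% over all windows. A match of letters is a description of the sequence and not a bound site.

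Total counts per library ran from 20064967 to 22648485 in S434A with H89, 17562754 to 18533717 in S434A without H89, 20223311 to 21922022 in WT with H89 and 27763604 to 37187794 in WT without H89. All 8 hepatocyte markers were expressed in every library, and all 6 fibroblast markers stayed under 0.19 CPM (counts in each 1000000, with library sizes scaled by TMM factors). The blood markers PTPRC and HBB were at 0, while CDH5, CD3D and VWF reached up to 6.70 CPM and PECAM1 had no match. The hepatocyte markers summed to 38337 to 39710 CPM in S434A with H89, 23736 to 47482 CPM in S434A without H89 and 37766 to 42571 CPM in WT with H89, against 66035 to 66789 CPM in WT without H89. The blood and endothelium markers summed to 3.62 to 5.74, 6.39 to 9.42 and 4.52 to 5.94 CPM in those groups, against 5.07 to 5.72 CPM in WT without H89, and the part of either list in the results was not tested. ALB alone, a hepatocyte marker, reached up to 37289 CPM. Of the 8 hepatocyte markers, 3 rose and 4 fell in S434A against WT without H89, beside 29% and 29.3% of all genes. With H89 in WT 3 rose and 3 fell, beside 38.8% and 30.9% of all genes. With H89 in S434A 0 rose and 2 fell, beside 29.3% and 22.7%. The make-up of the RNA differed between the groups. The share of counts on ribosomal protein genes was 7.93% to 7.94% with H89 and 9.51% to 11.5% without it in S434A cells, and 7.37% to 7.77% with H89 and 19.4% to 20% without it in WT cells. All genes with mitochondrial symbols, ribosomal and transfer RNAs included, took 8.27% to 8.57% of counts with H89 and 5.73% to 8.10% without it in S434A cells, and 7.44% to 8.82% with H89 and 3.83% to 3.91% without it in WT cells. The libraries of S434A without H89 stood apart from each other, with a biological coefficient of variation of 0.350 across genes, against 0.0546 in S434A with H89, 0.0732 in WT with H89 and 0.0190 in WT without H89. Across genes, the level in a library relative to all libraries followed the GC content of the transcript to differing degrees in S434A without H89 (Spearman's rho of 0.81, 0.71 and 0.13 in replicates 1, 2 and 3). HDAC1 itself averaged 618 ± 64.0 CPM in S434A with H89, 708 ± 46.8 CPM in S434A without H89, 697 ± 33.8 CPM in WT with H89 and 688 ± 13.6 CPM in WT without H89 (SD, n = 3 each). Its level does not check the labels of a point mutant.

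Of the 7 genes, HDAC5 was the most highly expressed in every group and HDAC9 was barely detected. Compared per kilobase of exon, the mean levels in S434A with H89 ran in the order HDAC5 (29.9 CPM per kilobase), HDAC11 (10.5), HDAC6 (6.37), HDAC7 (2.01), HDAC4 (1.92), HDAC10 (0.247) and HDAC9. HDAC10 is divided here by all its exon bases, of which 55.8% are also exons of another gene, MAPK12. Divided by its unshared bases alone, HDAC10 stood at 0.558 in S434A with H89 and 0.252 in WT without H89, still below HDAC4 and HDAC7. The libraries of HDAC7 and HDAC4 overlapped on this scale in S434A with H89, S434A without H89 and WT with H89, and no other neighbours in the order did. In WT without H89, HDAC5 stood at 22.5 and HDAC11 at 16.2 to 17.9 CPM per kilobase, and HDAC4 (0.929) was above HDAC7 (0.802) without overlap. HDAC5 supplied 57.3% ± 2.02 of the counts of the 7 genes in S434A with H89, 57.4% ± 0.784 in S434A without H89, 58.5% ± 0.979 in WT with H89 and 53.9% ± 0.381 in WT without H89 (SD, n = 3 each). HDAC11 supplied 13.9% ± 0.543, 15.5% ± 2.05 and 13.3% ± 0.816 in the first 3 of these groups, against 28.0% ± 0.961 in WT without H89. Less RNA of a gene per cell and fewer cells expressing it cannot be told apart in these bulk libraries.

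**Figure D1:**
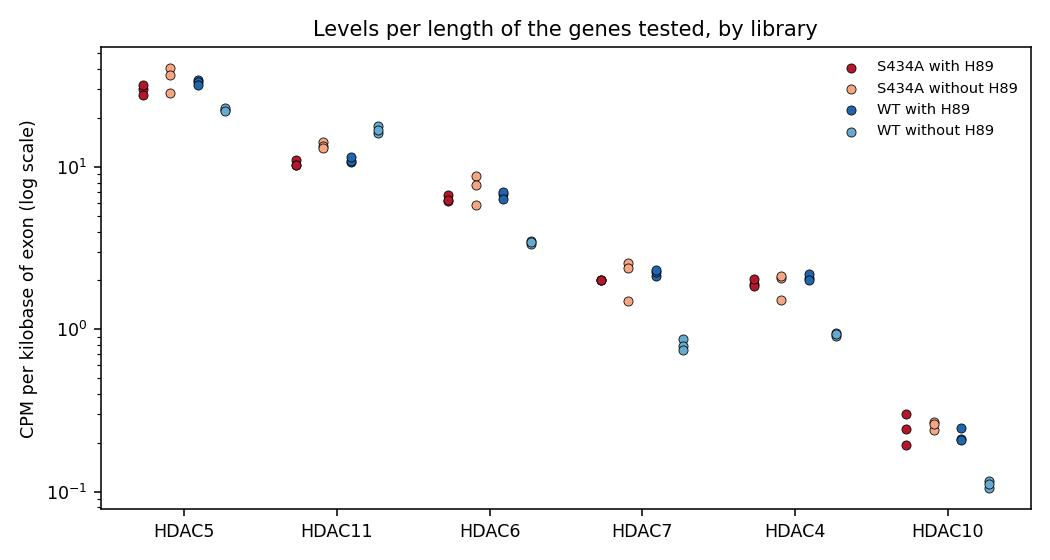
Levels per length of the 6 genes that passed the filter, as CPM per kilobase of exon on a log scale, with 1 point per library and 4 groups of 3 libraries. HDAC5 lies highest and HDAC10 lowest in every group, and HDAC11 is the gene whose highest points are those of WT without H89. HDAC10 is divided by all its exon bases, those shared with MAPK12 included.

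Among the class IIa genes, HDAC4 and HDAC7 were lowest in WT cells without H89 and averaged 2 to 3 times that level in the other 3 groups. HDAC4, a MEF2 corepressor, is ENSG00000068024.17_6 at hg19 chromosome 2, 239969864 to 240323348, minus strand. It had 25.3, 24.6 and 27.4 CPM in S434A with H89, 27.6, 28.5 and 20.3 CPM in S434A without H89, 27.6, 29.4 and 26.9 CPM in WT with H89, and 12.1, 12.6 and 12.6 CPM in WT without H89. HDAC7, also a MEF2 corepressor and known for its part in thymocytes and endothelium, is ENSG00000061273.18_7 at hg19 chromosome 12, 48176505 to 48226915, minus strand. It had 20.1, 19.9 and 19.8 CPM in S434A with H89, 25.5, 23.7 and 14.9 CPM in S434A without H89, 21.2, 22.4 and 22.9 CPM in WT with H89, and 8.61, 7.84 and 7.44 CPM in WT without H89. For both genes the 3 libraries of WT without H89 lay below all other 9, and replicate 3 was the lowest library of S434A without H89.

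HDAC4 rose in S434A over WT cells without H89 (log2 fold change 1.03, SE 0.12, edgeR quasi-likelihood test with Benjamini-Hochberg adjusted p = 3.25e-05) and with H89 over no H89 in WT cells (1.17, SE 0.12, edgeR adjusted p = 7.61e-06). HDAC7 rose in both comparisons as well, by 1.42 (SE 0.17, edgeR adjusted p = 3.69e-05) and by 1.48 (SE 0.17, edgeR adjusted p = 1.73e-05) on the log2 scale, the largest changes of the 6 genes in this fit. In S434A cells H89 gave log2 fold changes of 0.02 for HDAC4 and -0.10 for HDAC7 (edgeR adjusted p = 0.923 and 0.643). Without replicate 3 of S434A without H89, HDAC7 was lower with H89 (-0.30, edgeR adjusted p = 0.00895), and without replicate 1 of the same group it was at 0.05. HDAC4 in that comparison ran from -0.16 to 0.33 over all alternatives.

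HDAC5, the most abundant class IIa gene (ENSG00000108840.15_7, hg19 chromosome 17, 42154114 to 42201070, minus strand), followed the same pattern with smaller folds. It had 229, 243 and 211 CPM in S434A with H89, 308, 279 and 217 CPM in S434A without H89, 263, 255 and 245 CPM in WT with H89, and 171, 174 and 169 CPM in WT without H89. Each library of WT without H89 was again below every other library. HDAC5 rose by 0.64 on the log2 scale in S434A over WT without H89 (SE 0.11, edgeR adjusted p = 0.000385) and by 0.57 with H89 in WT (SE 0.11, edgeR adjusted p = 0.000726), both under 2-fold. With H89 in S434A its log2 fold change was -0.24 (SE 0.11, edgeR adjusted p = 0.0884). That comparison passed the test, with HDAC5 lower, under RLE factors (-0.33, adjusted p = 0.0225), upper-quartile factors (-0.36, adjusted p = 0.0202), DESeq2 (-0.33, adjusted p = 0.0153) and no filter (-0.34, adjusted p = 0.0186). It also passed without S434A without H89 replicate 3, S434A with H89 replicate 1 or 2, or WT with H89 replicate 1, 2 or 3 (edgeR adjusted p = 0.000821 to 0.0431). RLE factors, upper-quartile factors and DESeq2 moved the median of all genes in that comparison to -0.08, -0.11 and -0.08, against 0.01.

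HDAC9, the remaining class IIa gene, is ENSG00000048052.21_8 at hg19 chromosome 7, 18126572 to 19042039, plus strand. It had 0, 1 and 2 counts in S434A with H89, 0, 0 and 0 counts in S434A without H89, 1, 0 and 1 counts in WT with H89, and 0, 1 and 0 counts in WT without H89. Every library was under the floor of 3 counts per library, which stands for 0.0964 to 0.166 CPM. No difference was detectable at this depth.

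**Figure D2:**
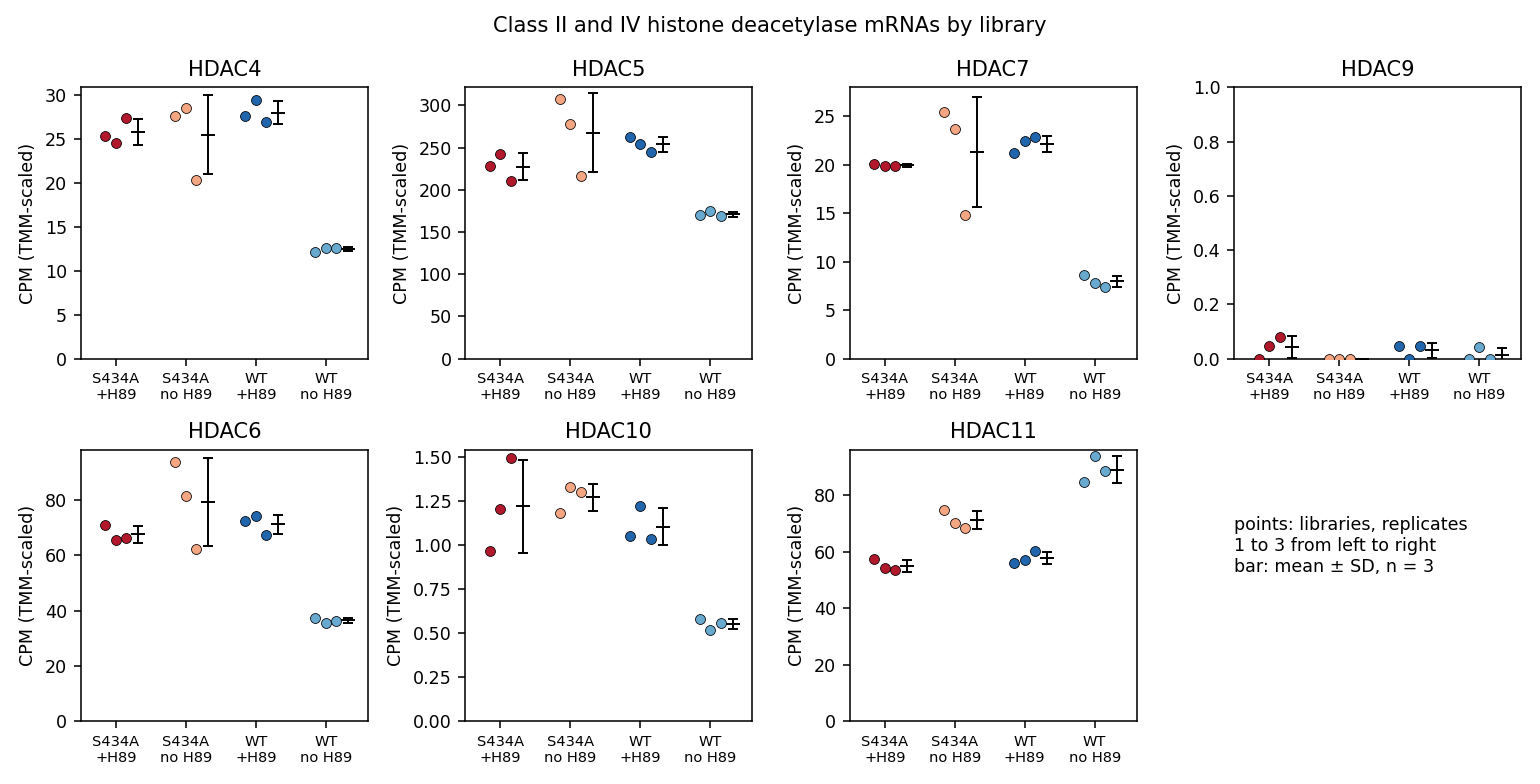
TMM-scaled CPM of the 7 genes, with 1 point per library (replicates 1 to 3 from left to right in each group) and the mean ± SD (n = 3) beside them. The class II genes other than HDAC9 are lowest in WT without H89, while HDAC11 is highest there.

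Of the class IIb genes, HDAC6 (ENSG00000094631.21_9, hg19 chromosome X, 48659784 to 48683392, plus strand), the tubulin deacetylase, moved like HDAC4. Its level was 70.9, 65.5 and 66.2 CPM in S434A with H89, 93.8, 81.4 and 62.1 CPM in S434A without H89, 72.2, 74.0 and 67.3 CPM in WT with H89, and 37.2, 35.7 and 36.4 CPM in WT without H89. It rose by 1.12 on the log2 scale in S434A over WT without H89 (SE 0.12, edgeR adjusted p = 2.04e-05) and by 0.97 with H89 in WT (SE 0.12, edgeR adjusted p = 3.51e-05). In S434A, H89 gave -0.23 (SE 0.12, edgeR adjusted p = 0.135). This became a fall that passed the test under RLE factors (-0.32, adjusted p = 0.0366), upper-quartile factors (-0.35, adjusted p = 0.0373) and DESeq2 (-0.32, adjusted p = 0.0307). It also passed without S434A without H89 replicate 3, S434A with H89 replicate 1, or WT with H89 replicate 1, 2 or 3 (edgeR adjusted p = 0.00108 to 0.0478).

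HDAC10 (ENSG00000100429.18_7, hg19 chromosome 22, 50683612 to 50689834, minus strand), the polyamine deacetylase, was expressed close to the filter, at 12 to 37 counts per library. It had 0.965, 1.21 and 1.49 CPM in S434A with H89, 1.18, 1.33 and 1.30 CPM in S434A without H89, 1.05, 1.22 and 1.04 CPM in WT with H89, and 0.578, 0.520 and 0.555 CPM in WT without H89. The filter stood at about 0.484 CPM for a library of median size, and all libraries of WT without H89 were just above it. HDAC10 rose by 1.19 on the log2 scale in S434A over WT without H89 (SE 0.20, edgeR adjusted p = 0.000338) and by 0.99 with H89 in WT (SE 0.19, edgeR adjusted p = 0.0009). Of its 4951 exon bases, 2763 (55.8%) are also exons of MAPK12, a kinase gene on the same strand, and the counting options in the file header say nothing about reads that fall on both genes. MAPK12 averaged 30.0 CPM in S434A with H89, 37.9 CPM in S434A without H89, 29.5 CPM in WT with H89 and 31.4 CPM in WT without H89. Its means did not show the low level that HDAC10 had in WT without H89. How reads of the shared exons were divided was not tested, and the HDAC10 values are uncertain for that reason.

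HDAC11 (ENSG00000163517.15_7, hg19 chromosome 3, 13521224 to 13547924, plus strand), the class IV gene, moved in the opposite direction and was highest in WT without H89. It had 57.5, 54.0 and 53.5 CPM in S434A with H89, 74.7, 70.1 and 68.4 CPM in S434A without H89, 55.8, 57.2 and 60.1 CPM in WT with H89, and 84.6, 93.9 and 88.4 CPM in WT without H89. The libraries of WT without H89 lay above all others, those of S434A without H89 came next without overlap, and the H89 groups of both genotypes overlapped. HDAC11 fell by 0.32 on the log2 scale in S434A against WT without H89 (SE 0.07, edgeR adjusted p = 0.00136), by 0.62 with H89 in WT (SE 0.07, edgeR adjusted p = 8.29e-06) and by 0.37 with H89 in S434A (SE 0.07, edgeR adjusted p = 0.00149). When only the libraries of the groups compared entered the fit, the change in S434A against WT without H89 was -0.11 (edgeR adjusted p = 0.275), beside a median of all genes of 0.15 in that fit, against -0.04. An antisense gene, HDAC11-AS1, shares 330 exon bases with HDAC11 and had 3 counts over the 12 libraries; the sources do not state strandedness.

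Counted together, 5 of the 6 genes tested rose in S434A over WT without H89 and 1 fell. Over all genes tested, 58.3% passed the test in that comparison, 29% as higher and 29.3% as lower. Of the 6 genes, 4 (HDAC4, HDAC6, HDAC7 and HDAC10) were also past the study's fold threshold of 2, where 22.9% of all genes were called, 11.6% as higher. With H89 in WT, 5 rose and 1 fell, where 69.7% of all genes passed, 38.8% as higher and 30.9% as lower. HDAC4 and HDAC7 were past 2-fold there, beside 38% of all genes called, 22.2% as higher. With H89 in S434A, 0 rose and HDAC11 fell, where 52% of all genes passed, 29.3% as higher and 22.7% as lower. That share depended on the fit: 7504 of 14435 genes passed, against 2743 of 13787 with only the compared groups fitted and 5127 of 14435 by limma-voom with group weights. None of the 6 was past 2-fold there, beside 17.6% of all genes called, 15.2% as higher and 2.35% as lower. The libraries of the 2 groups did not overlap for 6 of 6 genes in S434A against WT without H89 (62.7% of all genes), 6 of 6 with H89 in WT (83.1%) and 1 of 6 with H89 in S434A (56.4%). The median log2 fold change of the 6 genes was 1.08 in S434A over WT without H89, 0.98 with H89 in WT and -0.16 with H89 in S434A, beside -0.04, 0.20 and 0.01 over all genes. S434A without H89 and WT with H89 are both compared with WT without H89 and so share that control. With the dependence of counts on GC content and length removed, 2 of the 6 genes rose and 2 fell in S434A against WT without H89. In that fit H89 left 3 genes higher and 1 lower in WT cells by the same test, and 2 higher and 0 lower in S434A cells.

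Between S434A and WT cells that had both received H89, none of the 6 genes passed the test in the main edgeR fit, and 0% of all genes did. Of the 14435 genes, 589 had an unadjusted p under 0.05 in edgeR, 4.08% of those tested. That share was 8.98% without replicate 3 and 7.81% without replicate 1 of S434A without H89, 2.00% without replicate 3 of S434A with H89, and 2.45% without replicate 1 of WT with H89. It was 11.4% with only the compared groups fitted and 12.7% by limma-voom with group weights. At an adjusted p under 0.05, DESeq2 called 2 genes, limma-voom 0 and limma-voom with group weights 3. A further fit removed the dependence on GC content and length and left out S434A without H89 replicate 1. It called 25 of 14501 genes, and 13.3% had an unadjusted p under 0.05. In the main fit the log2 fold changes were -0.12 for HDAC4, -0.16 for HDAC5, -0.15 for HDAC7, -0.08 for HDAC6, 0.15 for HDAC10 and -0.07 for HDAC11, with standard errors of 0.07 to 0.17. The libraries did not overlap for HDAC5 and HDAC7, both lower in S434A, and did not overlap for 17.3% of all genes.

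The effect of H89 differed between the genotypes for all 6 genes tested, and 48% of all genes passed this test, 24% in each direction. By its terms, this difference also equals S434A against WT with H89 minus S434A against WT without H89. It therefore restates those 2 comparisons and is no separate result. With the dependence on GC content and length removed, HDAC7 and HDAC11 passed this test, and the other 4 genes did not, HDAC5 standing at 0.29 (edgeR adjusted p = 0.123). Of the 6, 4 were past 2-fold, where 24.2% of all genes were. The H89 effect in S434A minus that in WT was -1.57 for HDAC7 (SE 0.24, edgeR adjusted p = 0.000322), -1.20 for HDAC6 (SE 0.17, edgeR adjusted p = 0.000244) and -1.15 for HDAC4 (SE 0.17, edgeR adjusted p = 0.000282). It was -1.04 for HDAC10 (SE 0.26, edgeR adjusted p = 0.00953) and -0.80 for HDAC5 (SE 0.15, edgeR adjusted p = 0.00134). For HDAC11 it was 0.26 (SE 0.09, edgeR adjusted p = 0.0414), since the gene fell less with H89 in S434A than in WT. The HDAC11 difference was lost without S434A without H89 replicate 2, S434A with H89 replicate 1, WT with H89 replicate 1 or 2, or WT without H89 replicate 2 or 3 (0.22 to 0.28, edgeR adjusted p = 0.0535 to 0.109).

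Ratios of counts within a library do not depend on how libraries are scaled to each other. Those to HDAC11 separated WT without H89 from the other groups. They set the gene that was highest there against genes that were lowest there, so the separation is no independent support. Dependence on GC content and length remains in such ratios, and how many other pairs of genes separate the groups was not tested. HDAC6 counts divided by HDAC11 counts averaged 1.23 ± 0.0139 in S434A with H89, 1.11 ± 0.180 in S434A cells without H89 and 1.24 ± 0.101 in WT with H89, against 0.410 ± 0.0299 in WT without H89 (SD, n = 3 each). The ratio of HDAC7 to HDAC11 averaged 0.363 ± 0.0118, 0.299 ± 0.0706 and 0.384 ± 0.00691 in those groups, against 0.0898 ± 0.0103 in WT without H89. HDAC5 to HDAC11 averaged 4.14 ± 0.308, 3.75 ± 0.511 and 4.41 ± 0.323, against 1.93 ± 0.0800 in WT without H89. No library of WT without H89 overlapped any other library for these 3 ratios. Within class II, the ratio of HDAC6 to HDAC5 was 0.298 ± 0.0245 in S434A with H89, 0.294 ± 0.00931 in S434A without H89, 0.280 ± 0.00911 in WT with H89 and 0.213 ± 0.00729 in WT without H89.

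**Figure D3:**
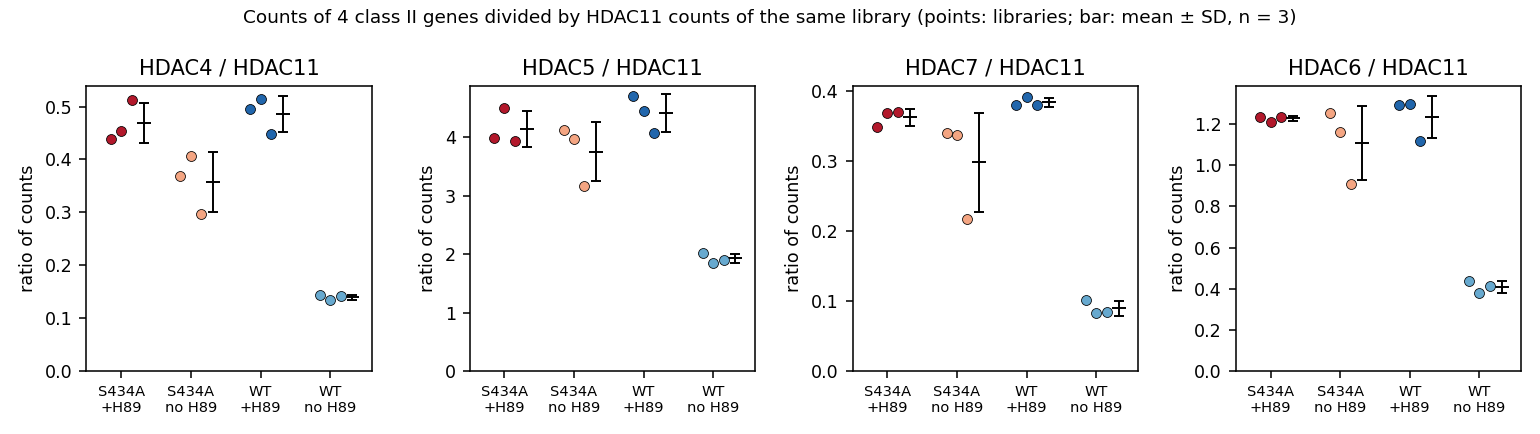
Counts of HDAC4, HDAC5, HDAC7 and HDAC6 divided by HDAC11 counts of the same library, with 1 point per library and the mean ± SD (n = 3). For HDAC6 the WT libraries without H89 average 0.410, against 1.11 to 1.24 in the other groups.

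The summed level of the 7 genes ran from 379 to 408 CPM in S434A with H89, 384 to 531 CPM in S434A without H89 and 423 to 441 CPM in WT with H89, against 314 to 325 CPM in WT without H89. The 4 class I genes HDAC1, HDAC2, HDAC3 and HDAC8 summed to 803 ± 69.9, 851 ± 41.5 and 885 ± 48.0 CPM in those groups, against 926 ± 15.9 CPM in WT without H89 (SD, n = 3 each). In S434A against WT without H89, 0 of the 4 class I genes rose and 3 fell: HDAC3 by 0.70, HDAC8 by 0.98 and HDAC2 by 0.77 on the log2 scale (edgeR adjusted p = 1.23e-06, 0.000793 and 0.0476), beside 29.3% of all genes lower. All 3 fell in the fit with GC and length dependence removed too. HDAC2 had 20.3, 51.0 and 62.9 CPM in S434A without H89, and 2 of the 4 genes fell without replicate 2 of that group or without any 1 library of the other 3 groups. When S434A cells received H89, HDAC2 rose by 1.17 and HDAC8 by 0.59 (edgeR adjusted p = 0.00988 and 0.0221), and HDAC3 fell by 0.27 (adjusted p = 0.00187). With GC and length dependence removed, 0 rose and HDAC8 fell by 0.52, and with only the compared groups fitted 0 of the 4 passed. HDAC3, the catalytic partner of class IIa enzymes, averaged 94.2 CPM in S434A without H89 and 80.4 CPM in WT with H89, against 153 CPM in WT without H89.

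The 6 genes tested are richer in G and C and longer than most genes, and both properties moved with the comparisons. The transcript of HDAC4 is 55.1% G or C, HDAC6 56.2%, HDAC7 57.7%, HDAC11 61.0%, HDAC5 61.2% and HDAC10 66.9%, against a median of 49.0% over the genes tested. Their exon lengths in the deposited table run from 4951 bases (HDAC10) to 13377 bases (HDAC4), against a median of 4734. A smooth function of GC content and exon length accounted for 38.7% of the variance of log2 fold changes across genes in S434A against WT without H89, 24.9% with H89 in WT, 52.6% with H89 in S434A and 3.44% in S434A against WT with H89.

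A further fit took out, library by library, the smooth dependence of counts on GC content and length, here called the trends. In both comparisons with WT without H89, HDAC7 and HDAC6 rose and HDAC11 fell in this fit too, and the changes of all 5 class II genes tested were smaller or turned round. In S434A against WT without H89, HDAC7 was higher by 0.43 (edgeR adjusted p = 0.00637) and HDAC6 by 0.19 (adjusted p = 0.0409). The call of HDAC6 did not hold in every alternative run, where its adjusted p reached 0.06. HDAC11 was lower (-1.06, edgeR adjusted p = 4.57e-05) and HDAC5 turned to -0.37 (adjusted p = 0.00787). HDAC4 at 0.10 and HDAC10 at 0.22 did not pass (adjusted p = 0.452 and 0.561). In this fit 53.8% of all genes passed, 23.2% as higher and 30.6% as lower. With H89 in WT, HDAC4 (0.48), HDAC7 (0.84) and HDAC6 (0.36) rose and HDAC11 fell (-0.91, edgeR adjusted p = 8.53e-05), while HDAC5 at -0.06 and HDAC10 at 0.42 did not pass (adjusted p = 0.609 and 0.218). Here 71.2% of all genes passed, 42.2% as higher. With H89 in S434A, HDAC4 (0.33) and HDAC7 (0.34) rose (edgeR adjusted p = 0.0191 and 0.0226) and HDAC11 stood at 0.13 (adjusted p = 0.485). Here 47.5% of all genes passed, 37% as higher, and the median of all genes was 0.23, against 0.01 without the removal. Of the differences between the H89 effects, those of HDAC7 (-0.50, edgeR adjusted p = 0.02) and HDAC11 (1.04, adjusted p = 0.00132) passed, beside 42.3% of all genes. The removal takes out any difference between groups that runs along GC content or length, whatever its source. Whether the make-up of the RNA, with ribosomal protein genes at 19.4% to 20% of counts in WT without H89, had a part in the differences of the 6 genes was not tested.

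**Figure D4:**
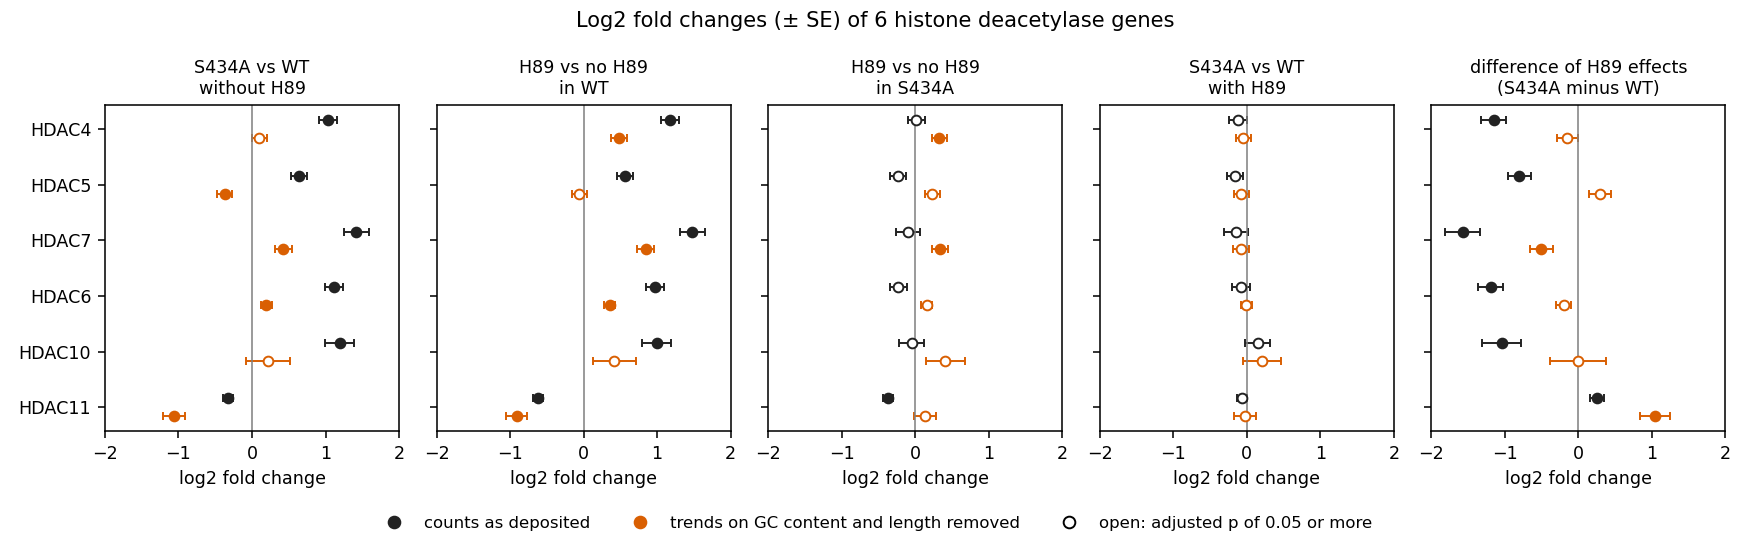
Log2 fold changes ± SE of the 6 genes in 4 comparisons of groups and in the difference of H89 effects, from counts as deposited (black) and after removal of the trends along GC content and length (orange). Filled points have an adjusted p under 0.05; in S434A against WT without H89, HDAC7 lies at 1.42 and 0.43 and HDAC11 at -0.32 and -1.06 in the 2 fits.

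**Figure D5:**
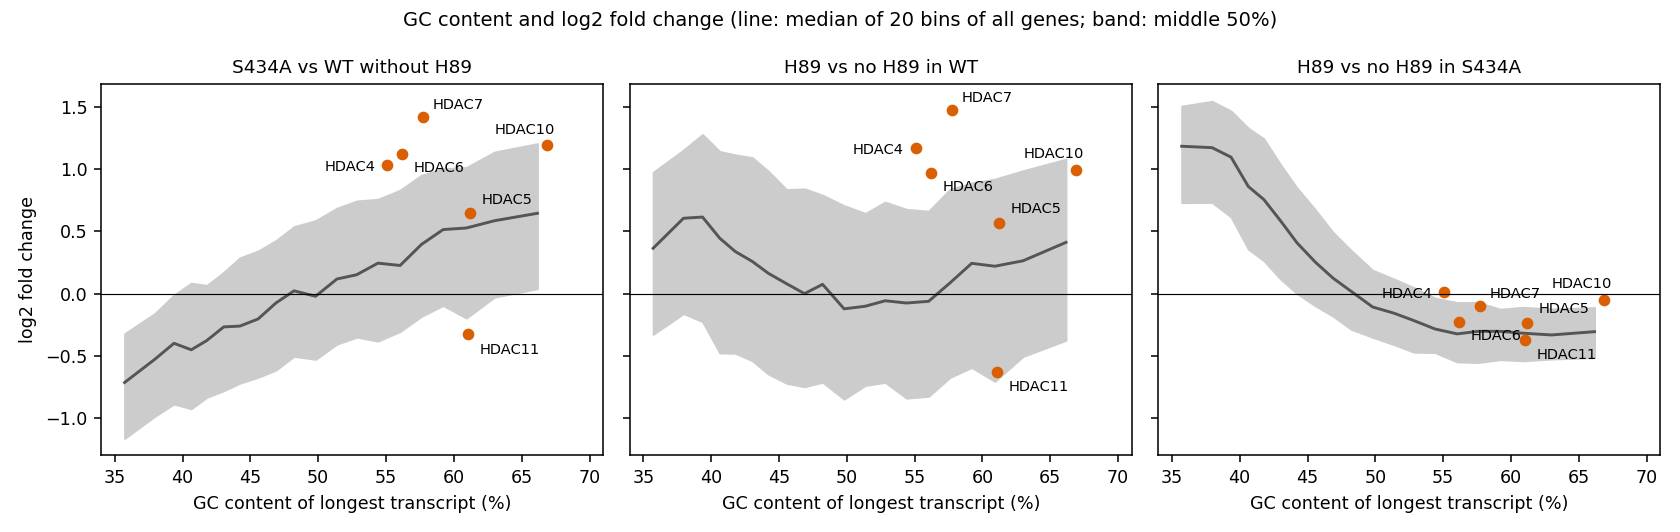
Median log2 fold change (line) and its middle 50% (band) over 20 bins of all tested genes by GC content, with the 6 genes as orange points, for 3 comparisons. In the first 2 panels HDAC4, HDAC6 and HDAC7 lie above the band and HDAC11 below zero; with H89 in S434A the 6 genes lie between -0.37 and 0.02.

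The partners and kinases of class IIa enzymes were listed by function, and members of these lists are given beside the same background as above. Of 13 class IIa kinases tested (of 16 listed), 5 rose and 1 fell in S434A over WT without H89, and 10 rose and 1 fell with H89 in WT. Their median log2 fold changes were 0.20 and 1.21, beside -0.04 and 0.20 over all genes. Of all genes, 58.3% passed in the first of these comparisons and 69.7% in the second, 29% and 38.8% as higher. SIK2, a salt-inducible kinase that PKA is known to inhibit, had 35.7 CPM in S434A without H89 and 46.5 CPM in WT with H89, against 20.4 CPM in WT without H89. It rose by 0.81 and 1.19 on the log2 scale (edgeR adjusted p = 8.20e-06 and 1.85e-07), and SIK3 rose by 1.17 and 1.40 (edgeR adjusted p = 4.52e-05 and 7.18e-06). In the fit without trends SIK2 was higher by 0.28 and 0.73. Of the 13 kinases, 7 rose and 3 fell in the first comparison in that fit, beside 23.2% of all genes higher and 30.6% lower. In the second 9 rose and 3 fell, beside 42.2% of all genes higher and 29% lower. CAMK1, a calmodulin-dependent kinase, averaged 13.3 CPM in WT with H89, against 33.2 CPM in WT without H89, and fell by 1.32 with the trends kept. With H89 in S434A, 7 kinases rose and 1 fell with the trends kept, where 52% of all genes passed, 29.3% as higher and 22.7% as lower. In the same comparison 3 rose and 1 fell without replicate 2 of S434A without H89 or replicate 3 of S434A with H89, and 2 rose and 1 fell without replicate 2 of S434A with H89. Once the trends were removed, 10 rose and 0 fell there, beside 47.5% of all genes, 37% as higher. CAMK1 then stood at -0.19 (edgeR adjusted p = 0.199).

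Of the MEF2 factors, 2 of 4 were tested, and both rose with H89 in WT: MEF2D by 1.55 and MEF2A by 1.78 (edgeR adjusted p = 7.14e-06 and 3.43e-05). In S434A over WT without H89, MEF2D rose by 1.31 (edgeR adjusted p = 4.01e-05), and both rose without replicate 1 of S434A without H89. Of the 14-3-3 genes, all 7 were tested; with H89 in WT 1 rose (YWHAG, by 0.75) and 3 fell, YWHAE most (by 1.15). In the fit without trends 3 rose (YWHAG, YWHAQ and YWHAH) and 3 fell (YWHAE, YWHAB and YWHAZ), with YWHAH at 0.35 there and at -0.30 with the trends kept. In S434A against WT without H89, 1 rose and 2 fell, and 2 rose and 4 fell without replicate 3 of S434A without H89, and 1 rose and 4 fell without replicate 3 of WT with H89. The median log2 fold change of the 14-3-3 genes was -0.17 in S434A against WT without H89 and 0.02 with H89 in WT. Over all genes the medians were -0.04 and 0.20. In the same order 58.3% and 69.7% of all genes passed, 29% and 38.8% as higher.

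FOXO1 encodes a transcription factor of glucose production, and class IIa enzymes act on FOXO factors as proteins. Its mRNA rose by 0.93 in S434A over WT without H89 and by 1.45 with H89 in WT (edgeR adjusted p = 5.11e-05 and 1.01e-06). Of the 5 FOXO and gluconeogenic genes, 3 rose and 0 fell in the first of these comparisons, and 2 rose and 2 fell in the second, with medians of 0.92 and 0.02. In the fit without trends 2 rose and 1 fell in the first comparison, where FOXO3 stood at 0.59 (edgeR adjusted p = 0.119) and PCK1 fell by 0.33 (adjusted p = 0.0354). PCK1, the cytosolic enzyme that commits carbon to glucose synthesis, averaged 63.0 CPM in WT with H89, against 133 CPM in WT without H89. It averaged 52.0 CPM in S434A with H89, against 128 CPM in S434A without H89. It fell by 1.07 and 1.30 on the log2 scale with H89 (edgeR adjusted p = 4.93e-06 and 2.01e-05). G6PC1, the glucose-releasing phosphatase, rose by 0.97 in S434A over WT without H89 (edgeR adjusted p = 0.000197) and fell by 1.57 with H89 in S434A (edgeR adjusted p = 4.20e-05). Of 4 MEF2-controlled genes tested, all rose with H89 in WT, among them NR4A1 by 1.16 and PPARGC1A, a coactivator of gluconeogenic and mitochondrial genes, by 1.92 (edgeR adjusted p = 6.06e-05 and 0.00122). In S434A over WT without H89, 2 of them rose, NR4A1 and KLF4, and 1 rose without replicate 2 of S434A without H89 or without replicate 1, 2 or 3 of WT without H89. In the fit without trends NR4A1 (0.21) and KLF4 (0.88) did not pass there (edgeR adjusted p = 0.247 and 0.0522). KLF4 was close to the filter on low counts. It averaged 0.540 CPM in S434A without H89 and 0.657 CPM in WT with H89, against 0.244 CPM in WT without H89. The medians of the 4 genes were 0.72 and 1.28 in the 2 comparisons, beside -0.04 and 0.20 over all genes. For both lists the share of all genes that passed was 58.3% in S434A against WT without H89 and 69.7% with H89 in WT. As higher, 29% and 38.8% passed.

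Of 11 substrates and aggresome partners of HDAC6, 7 rose and 1 fell in S434A over WT without H89, and 5 rose and 3 fell with H89 in WT, with median log2 fold changes of 0.50 and 0.24. Over all genes, 58.3% passed in the first of these comparisons, 29% as higher and 29.3% as lower. In the second 69.7% passed, 38.8% as higher and 30.9% as lower. In S434A cells with H89, 3 rose and 5 fell, where 52% of all genes passed, 29.3% as higher and 22.7% as lower. DYNC1H1, the dynein heavy chain that carries cargo to the aggresome, averaged 297 CPM in S434A without H89 and 415 CPM in WT with H89, against 85.6 CPM in WT without H89. It rose by 1.80 and 2.28 on the log2 scale (edgeR adjusted p = 4.35e-07 and 1.22e-08), and by 0.62 and 0.87 in the fit without trends. TUBA1A, an alpha-tubulin gene whose reads may be shared with near-identical tubulin genes, averaged 3.26 CPM in S434A with H89, against 17.7 CPM in S434A without H89, and 2.96 CPM in WT with H89, against 11.9 CPM in WT without H89. It fell by 2.44 and 2.00 with H89 (edgeR adjusted p = 3.17e-05 and 1.12e-05). ATAT1, the tubulin acetyltransferase that opposes HDAC6, rose by 0.91 in S434A over WT without H89 and by 0.89 with H89 in WT (edgeR adjusted p = 0.00013 and 0.000115). The other deacetylase of tubulin listed, SIRT2, did not pass in either with the trends kept. In the fit without trends ATAT1 rose (0.80 and 1.20) and SIRT2 fell in both. Of 9 polyamine genes tested (of 10 listed), 2 rose and 5 fell in S434A against WT without H89, and 1 rose and 5 fell with H89 in WT, with medians of -0.51 and -0.18. In the fit without trends 2 rose and 3 fell in the first comparison, and 4 rose and 3 fell in the second. ODC1, the first enzyme of polyamine synthesis, fell by 0.51 and 1.13 (edgeR adjusted p = 4.31e-05 and 5.45e-08), and its inhibitor OAZ1 fell by 0.66 and 1.32. Of 4 genes of lysine fatty acylation, 1 rose and 1 fell in the first comparison and 2 rose and 1 fell in the second. In the fit without trends 0 rose and 2 fell in the first. SHMT2, a substrate of HDAC11, fell in both, by 0.28 and 1.14 (edgeR adjusted p = 0.00617 and 1.79e-07). Between S434A and WT with H89, 0 genes of these lists passed in the main edgeR fit.

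The genes whose log2 CPM over the 12 libraries was most like that of a member, with at least 10 CPM on average, were found by Pearson's r as a description. For HDAC6 they were PIEZO1 (0.999), PLCG1 (0.999) and SMPD4 (0.998). For HDAC7 they were ARID3A, PPP6R1 and FBXO41 (0.996 each). For HDAC4 they were MARK2, MYORG and WIZ (0.994 each), of which MARK2 is a class IIa kinase on the list above. For HDAC5 they were TTC7A (0.996), AGAP3 (0.990) and SCARF2 (0.989), and for HDAC11 they were HTRA2 (0.991), BIRC5 (0.990) and FGGY (0.989). Between members, r was 0.99 for HDAC4 with HDAC7, 0.98 for HDAC7 with HDAC6 and 0.96 for HDAC5 with HDAC6, and it ran from -0.83 (HDAC4) to -0.57 (HDAC5) for HDAC11 with HDAC4, HDAC5, HDAC6 and HDAC7. The points share their libraries, their depth and the differences in RNA make-up between groups, and the libraries of WT without H89 lie apart from the rest for each of these genes.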

How the data were processed

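HepG2 RNA was sequenced in 12 libraries. The authors deposited whole counts for each gene, which featureCounts 2.0.1 took over exons of an hg19 annotation, per the file headers, after alignment with Bowtie 0.12.2 to hg19, per the submitters' processing notes. The exon length of each gene is a further deposited column. The sources used here do not give strandedness, library kit or batches. Counts were used as deposited; 40639 identifiers had a symbol, and 14280 of the tested genes had a GC content (longest GENCODE transcript, matched by identifier).

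All 12 libraries entered 1 edgeR 4.0.16 fit (R 4.3.3; TMM factors, filterByExpr by group with a minimum count of 10, robust quasi-likelihood F tests, no block), with Benjamini-Hochberg adjustment over all genes tested. A gene "rose" or "fell" where its adjusted p was under 0.05; the study's threshold adds a fold change over 2. CPM values are TMM-scaled. Other settings were DESeq2 1.42.0, limma-voom (limma 3.58.1) with and without group weights, upper-quartile or RLE factors, no filter or a floor of 1 CPM in 3 libraries, a fit of the compared groups alone, a replicate block, offsets that remove a library's dependence on GC content and length (splines with 5 degrees of freedom), and leaving out each library. The steps were tested on simulated data.

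The members and the 11 lists of partners and pathway genes were chosen with earlier results of these data known. The results of 1 list are not reported here. All members were named; of each list up to 3 genes with the smallest p in a comparison were named, and of genes like a member the 3 with the highest r.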

Additional observations from a re-analysis of the deposited data

Results flagged for a closer look

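The effect of H89 differed between S434A and WT cells, by the test of the difference itself, for 6 genes. This difference equals S434A against WT with H89 minus S434A against WT without H89, so it is no result separate from those comparisons. The H89 effect in S434A minus that in WT, on the log2 scale, was -1.15 for HDAC4, -0.80 for HDAC5, -1.20 for HDAC6, -1.57 for HDAC7, -1.04 for HDAC10 and 0.26 for HDAC11, beside 48% of all genes tested that passed the same test. With the trends on GC content and length removed the differences were -0.15, 0.29, -0.20, -0.50, -0.01 and 1.04 for the same genes, and those of HDAC7 and HDAC11 passed.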

How the results depend on the processing

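Direction and call held for HDAC7 in S434A over WT without H89 (0.42 to 1.63) and for HDAC4 (0.48 to 1.18), HDAC7 (0.83 to 1.53), HDAC6 (0.35 to 0.98) and HDAC11 (-0.92 to -0.59) with H89 in WT, under all alternatives run. RLE factors moved the median log2 fold change of all genes with H89 in WT to 0.05, against 0.20, and the genes past 2-fold to 2579 higher and 2713 lower, against 3201 and 2285. With only the groups compared, 2397 genes were higher and 921 lower past 2-fold in S434A against WT without H89, against 1677 and 1635.

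Of the 6 genes tested, the number that passed with H89 in S434A was 3 with RLE factors, upper-quartile factors or DESeq2, 2 with no filter or with the trends on GC content and length removed (also without S434A without H89 replicate 1), and 1 to 4 with single libraries left out, against 1 in the main test. Of all genes, 7839, 7961 and 8023 of 14435 passed there with RLE factors, upper-quartile factors and DESeq2, against 7504 in the main test. With no filter 6141 of 30275 passed, and with the trends removed 6789 of 14280 (7120 of 14501 without S434A without H89 replicate 1). Leaving out single libraries gave 5800 of 14690 to 9677 of 14693. With the trends removed, 2 of the 6 genes passed in the difference of H89 effects, against 6, beside 6042 of 14280 genes, against 6935 of 14435. HDAC4 with H89 in S434A was -0.0786 (RLE), -0.0778 (DESeq2), -0.106 (upper-quartile) and -0.0855 (no filter). With single libraries left out, HDAC4 ran from -0.159 to 0.0764 and HDAC7 from -0.303 to 0.0498 with H89 in S434A, and HDAC10 from -0.0317 to 0.291 in S434A against WT with H89. With the trends removed, and then also without S434A without H89 replicate 1, HDAC5 was -0.37 and -0.24 in S434A against WT without H89, -0.0609 and -0.0640 with H89 in WT, and 0.29 and 0.17 in the difference. With H89 in S434A these fits gave 0.23 and 0.10 for HDAC5, 0.34 and 0.25 for HDAC7, 0.16 and 0.0812 for HDAC6, 0.41 and 0.0814 for HDAC10, and 0.13 for HDAC11 in the first. Genes past 2-fold numbered 1608 against 3312 in S434A against WT without H89, 1116 (832 with only the groups compared, 1582 without S434A without H89 replicate 1, 1635 without S434A with H89 replicate 2) against 2540 with H89 in S434A, and 1859 against 3491 in the difference. The cause was not tested.

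The labels give no pairing of samples by replicate number. Same-numbered libraries correlated at -0.153 to 0.471 in their deviations from the group means. Differently numbered libraries were not compared, so these values cannot decide whether the samples were paired. With the replicate number as a block, the HDAC11 difference of H89 effects no longer passed (0.26, adjusted p = 0.0656), and the other calls of the 6 genes were the same. With the block and the trends removed, 3 of the 6 genes passed in S434A against WT without H89, 2 with H89 in S434A and 2 in the difference. Of 14280 genes, 7606, 6758 and 5953 passed in those comparisons. In that fit HDAC5 was -0.38, -0.0599, 0.24 and 0.30 in S434A against WT without H89, H89 in WT, H89 in S434A and the difference. With H89 in S434A, HDAC7 was 0.34, HDAC6 0.16, HDAC10 0.37 and HDAC11 0.15 there. HDAC10 at 12 to 37 counts and HDAC9 at 0 to 2 counts per library are limited by depth.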
